A study of Zea mays with 14 samples.

Results

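The messages described here were far higher in sample M4, from maize embryonic axes 24 h into germination, than in quiescent axes, and were well below M4 in RB, the other 24 h sample. They are 183 of the 17555 probe sets on the array that do not measure a control, or 1.04%. A probe set is a group of short probes that together report the level of a transcript, and levels are log2 intensities throughout, so a difference of 1 is a 2-fold difference. A member had M4 at least 3.5 above the mean of the quiescent samples, and RB at least 1.2 below M4. The members were thus selected on the values of M4, RB and quiescent axes, so the distances between quiescent axes, M4 and RB are given as a description and without a test. The choice says nothing about time within germination, since no sample between 0 h and 24 h was compared, and "lagging" here means only a lower level in RB than in M4.

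The embryonic axis is the part of the maize embryo that becomes root and shoot. Polysomal RNA with insulin came from 3 samples, polysomal RNA without insulin from 3, and total RNA with insulin from 1, and for these groups axes cut from seeds after 22 h of imbibition at 27 °C in the dark spent a further 2 h in a complete Murashige and Skoog culture medium, to which bovine insulin (200 µU/mL) was or was not added. Total RNA of germinated axes came from the 24 h samples RB and M4, from seeds kept on wet cotton at 27 °C, and total RNA of quiescent axes came from 2 samples taken at 0 h. The labels do not say whether the RB and M4 axes also went through the medium, which contains nitrate, ammonium, sugar and salts. They give no maize line, and they call replicates biological without naming separate seed lots or days. The spread behind each p-value is therefore that of these samples alone and may be partly technical. Quiescent sample 1, M4 and total insulin were each run on 2 technical arrays, which were averaged.

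A dry maize embryo holds stored messages that serve the first hours after water enters, and new transcription then replaces them while the axis resumes respiration, draws on sugar and nitrogen, and prepares to elongate. Tissue inside a swelling seed can be short of oxygen, and plants meet this with fermentation enzymes such as alcohol dehydrogenase and with haemoglobins that turn over nitric oxide. Ammonium is made from nitrate by nitrate reductase and nitrite reductase, and it is built into amino acids by glutamine synthetase. Cytokinin oxidases break down cytokinins, the hormones that promote cell division, and polysomes are messages loaded with ribosomes.

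Strongly induced probe sets, those with M4 at least 3.5 above quiescent axes, numbered 537. Of these 183 (34.1%) were lagging, 171 lay in between, 160 had RB within 0.5 of M4 and are called equally induced, and 23 had RB above M4 by more than 0.5. RB was below M4 for 460 of the 537, a count that the choice of probe sets with a high M4 favours. Over all tested probe sets the median of RB minus M4 was -0.0011, and 49.9% were above 0. Across all 17555 probe sets, 741 (4.22%) had RB at least 1.2 below M4. The members closest to the limits were at 3.502, 3.516 and 3.528 for M4 minus quiescent and at -1.202 for RB minus M4, while the nearest probe sets left out were at 3.498 and 3.486 and at -1.198 and -1.196. The reverse pattern, with RB at least 3.5 above quiescent axes and at least 1.2 above M4, was found for 26 probe sets.

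**Figure D1:**
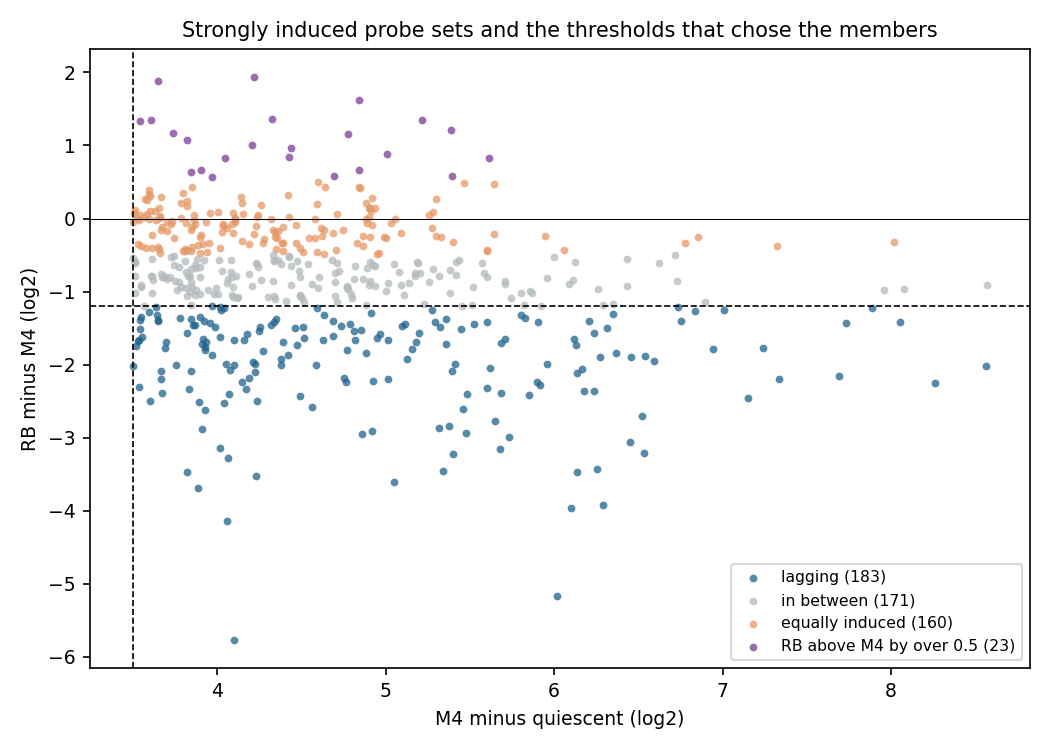
Each point is a strongly induced probe set, with M4 minus the quiescent mean (log2) on the x axis and RB minus M4 (log2) on the y axis. Dashed lines mark the thresholds of 3.5 and -1.2, and the 183 lagging members below the lower line grade into the 171 in between.

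Array medians were 7.28 to 7.62 over the 11 biological samples. Each polysomal sample was most like a sample of the other insulin group. Over the 183 members, Pearson's r across probe sets was 0.994 between polysomal insulin 2 and polysomal no insulin 1, 0.969 between insulin 1 and no insulin 2, and 0.977 between insulin 3 and no insulin 3. Between samples of the same group it was 0.873 to 0.930, and between the other pairs across groups 0.860 to 0.958. These values are descriptions over probe sets that share arrays, and the replicate numbers are used here only to name samples. For the control transcript EF1a, an elongation factor, a larger log2 ratio of 3′ over 5′ probe sets means fewer copies that reach the 5′ end. This ratio was 2.25, 1.45 and 0.99 in polysomal insulin 1 to 3, 1.32, 2.55 and 0.88 in polysomal no insulin 1 to 3, 0.38 in total insulin, 0.62 in RB, 0.63 in M4, and 1.15 and 1.35 in quiescent axes. RB and M4 thus had nearly the same ratio, and the median of their added poly(A) control transcripts was 7.56 in RB and 7.47 in M4. The median of the hybridisation controls differed, at 10.13 in RB and 9.03 in M4, and was 3.97 in polysomal insulin 2, against 8.98 to 10.69 in the other samples. The part of these controls in the results was not tested. Endosperm markers were low, with a median of 3.76 in M4 and 3.96 in quiescent axes over 19 probe sets, and none was strongly induced.

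The members' median level was 8.59 in RB and 10.66 in M4, against 5.44 and 5.33 in quiescent samples 1 and 2. It was 10.41, 10.36 and 10.54 in polysomal insulin 1 to 3, 10.25, 10.10 and 10.56 in polysomal no insulin 1 to 3, and 10.46 in total insulin. RB was therefore the lowest of the 9 germinated samples by this median, and the other 8 lay between 10.10 and 10.66. In whole axes, fewer cells that make a message and less of it per cell cannot be told apart. RB was not at the quiescent level: 175 of 183 members were at least 1 above quiescent axes in RB, 149 were at least 2 above, and 2 were below.

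**Figure D2:**
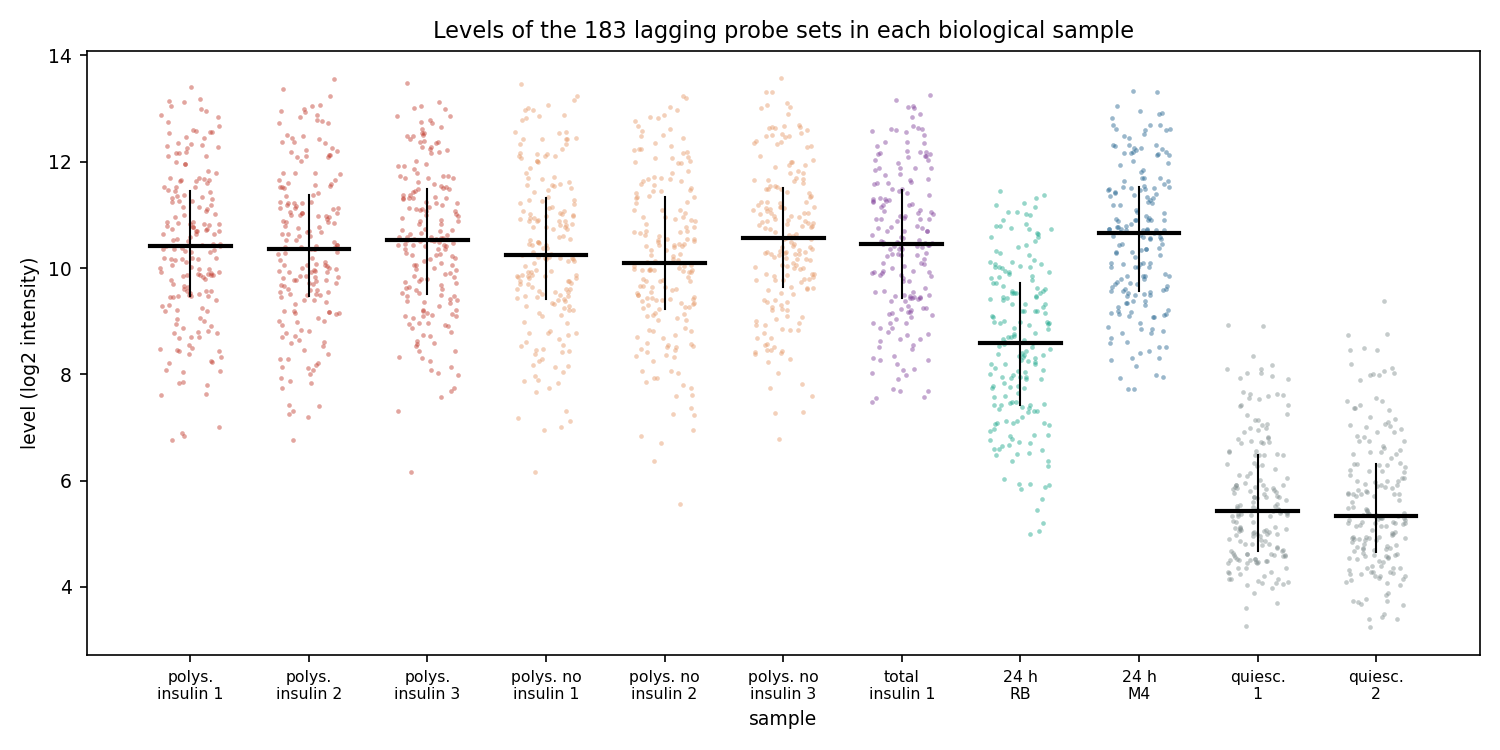
Levels (log2 intensity, y axis) of the 183 members in each of the 11 biological samples (x axis), with 1 point per probe set. Horizontal bars are medians and vertical bars span the middle 50%; the RB median of 8.59 sits between the quiescent medians of 5.44 and 5.33 and the other germinated samples, at 10.10 to 10.66.

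Placing each member on a scale with the quiescent mean at 0 and M4 at 100%, RB had a median position of 62.1%, from -40.5 to 84.5% over the members, and 43 of 183 lay under 50%. Samples that did not enter the rule lay close to M4 on this scale. The median position was 97.3, 97.6 and 99.6% in polysomal insulin 1 to 3, 96.4, 93.1 and 100.2% in polysomal no insulin 1 to 3, and 97.9% in total insulin. All 7 of these samples were above RB for 173 of 183 members (94.5%), compared with 44 of the 160 equally induced probe sets (27.5%). Members were picked for a low RB and equally induced probe sets for an RB near M4. Both counts thus follow in part from the choice, and they were given no test. For the 171 probe sets in between, the median position was 82.2% in RB, lower than in each of the 7 samples outside the rule. The lower position of RB was therefore graded and not particular to members. In total insulin, the sample most like M4, 181 members were nearer to M4 than to RB, and their median was 0.10 below M4.

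**Figure D3:**
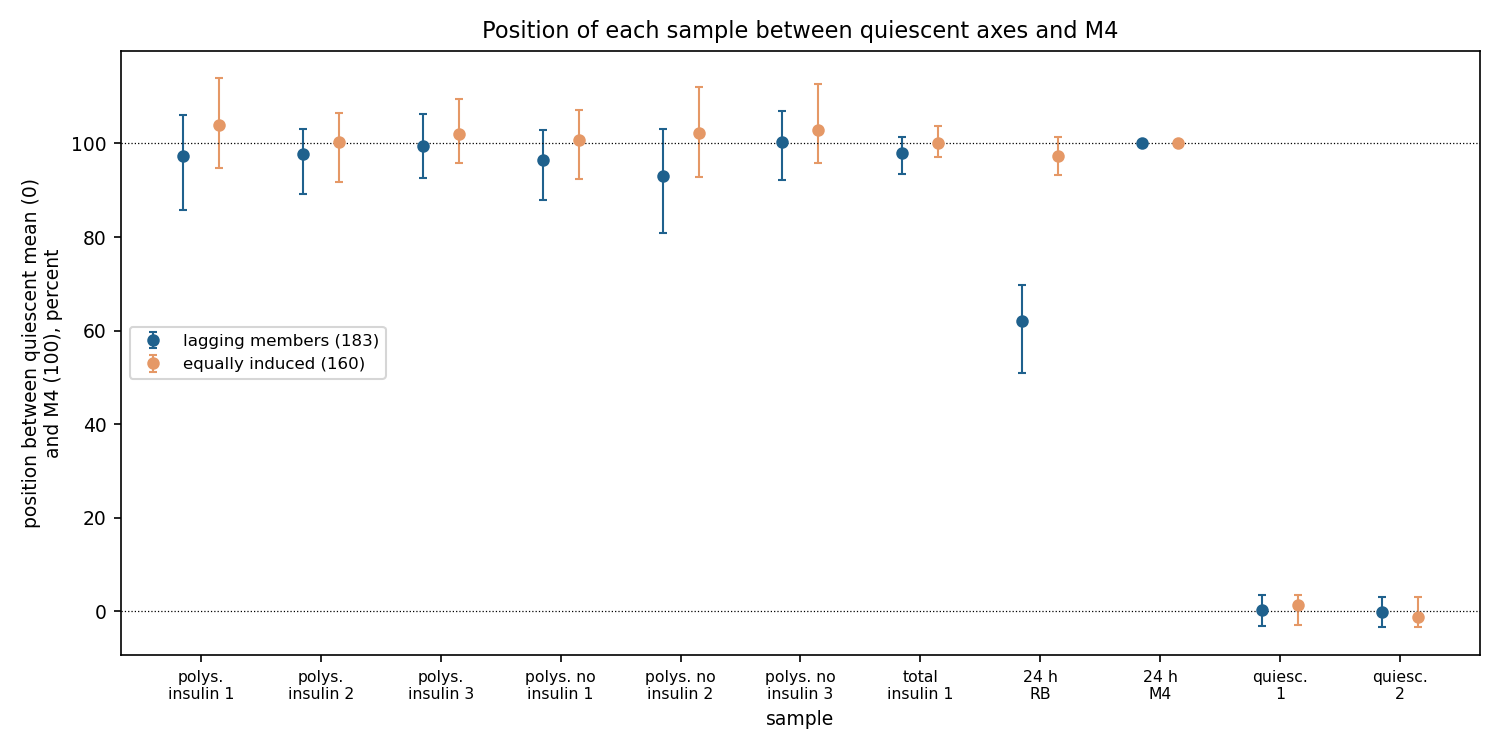
Position of each sample (x axis) between the quiescent mean (0) and M4 (100), in percent (y axis), as the median with the middle 50% over 183 lagging members and over 160 equally induced probe sets. Members sit at 62.1% in RB and at 93.1 to 100.2% in the 7 samples outside the rule; equally induced probe sets sit at 97.3% in RB.

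Of the members, 33 (18.03%) were at background in both quiescent samples, that is, below the 95th percentile of 23 negative controls in each, and their distance from M4 is a lower bound. The same held for 16 of 160 equally induced probe sets (10%). No member was at background in RB. The median of M4 minus quiescent was 4.75, or 4.69 with quiescent values raised to background. In limma's fit 178 of 183 members were called higher at 24 h than in quiescent axes (Benjamini-Hochberg adjusted p under 0.05), against 47.1% of all 17582 tested probe sets called in either direction and 21.3% called higher; the rule used this contrast, so nothing is read from it.

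A gene symbol was given for 35 members, which stand for 32 genes, and 148 had none. The named members are described by role.

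Haemoglobin and genes of respiration under low oxygen had the largest member. LOC541815 (Hb), a plant haemoglobin, was at 13.40, 13.56 and 13.48 in the polysomal insulin samples, 13.47, 13.24 and 13.57 in the polysomal no insulin samples, 13.25 in total insulin, 11.31 in RB, 13.33 in M4, and 4.81 and 4.73 in quiescent axes. It ranked first of the 183 by M4 minus quiescent, which was 8.56, and RB was 2.02 lower than M4. All 8 other germinated samples lay within 0.34 of each other and above RB. Alcohol dehydrogenase adh2 (LOC542364), which regenerates NAD+ in fermentation, was at 12.56, 12.11 and 12.42 in the polysomal insulin samples, 12.02, 12.08 and 12.30 in the polysomal no insulin samples, 11.85 in total insulin, 9.45 in RB, 12.22 in M4, and 7.41 and 5.74 in quiescent axes. The quiescent samples differed by 1.66 here, and RB stood 2.77 below M4. The alternative oxidase gene aox3 (LOC542676), whose product passes electrons to oxygen outside the cytochrome pathway, was at 9.57, 10.53 and 8.44 in the polysomal insulin samples, 10.37, 10.70 and 9.63 in the polysomal no insulin samples, 10.10 in total insulin, 8.71 in RB, 10.59 in M4, and 4.03 and 4.08 in quiescent axes. Polysomal insulin 3 was below RB for aox3, while the other 6 samples outside the rule were above RB. Quiescent values of aox3 were at background, so M4 was at least 5.90 above them. Among 31 probe sets of a low-oxygen and fermentation list, which was chosen after the values were seen, 11 were strongly induced; 4 of these lagged, 4 were equally induced, 1 lay in between and 2 had RB above M4. The lagging ones were Hb, adh2, aox3 and sh1, and the haemoglobin gene Hb2 lay in between. The equally induced ones were pdc1 (pyruvate decarboxylase), the glyceraldehyde-phosphate dehydrogenases gpc3 and gpc4, and the sucrose synthase gene sus1. The 2 with RB above M4 were further probe sets of gpc3. Pyruvate decarboxylase pdc1 was at 12.87 in RB and 13.20 in M4, against 4.83 and 5.53 in quiescent axes. Its gap between RB and M4 was 0.33, beside 2.77 for adh2, which acts next to it in the pathway.

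Nitrate assimilation held 8 members, and all 8 strongly induced probe sets of that 25-member list were lagging. The list was chosen after the values were seen. Over the whole list 10 probe sets were called higher at 24 h, 3 lower and 12 not, beside 21.3% of all tested called higher. The rule used this contrast and 8 of the 25 were members, so nothing is read from these counts. Nitrate reductase, the first enzyme of the route, was represented by nar and NNR1. The nar probe set was at 11.67, 10.99 and 11.22 in the polysomal insulin samples, 10.99, 11.67 and 11.48 in the polysomal no insulin samples, 10.58 in total insulin, 7.13 in RB, 10.56 in M4, and 4.21 and 4.40 in quiescent axes. RB was 3.43 below M4, and every sample outside the rule was at or above M4. Quiescent values of nar were at background, so M4 was at least 5.86 above them. NNR1 was at 7.31 in RB and 9.53 in M4, against 4.53 and 4.67 in quiescent axes, and at 9.12 in total insulin. Nitrite reductase NIR (LOC542264), which reduces nitrite to ammonium in plastids, was at 12.30, 12.37 and 12.61 in the polysomal insulin samples, 12.34, 12.18 and 12.60 in the polysomal no insulin samples, 12.29 in total insulin, 9.81 in RB, 12.31 in M4, and 7.94 and 8.20 in quiescent axes. The 8 germinated samples other than RB were within 0.43 of each other for NIR, and RB was 2.50 below M4. The gene sum1 (LOC542745) encodes a methyltransferase that makes sirohaem, the cofactor of nitrite reductase, and it had 10.11 in RB and 11.58 in M4, against 6.30 and 6.66 in quiescent axes. Ferredoxin-NADP reductase fnr1 (LOC542713), which passes electrons to ferredoxin in plastids, had 2 member probe sets with RB 1.87 and 1.66 below M4. Of its other probe sets, 1 lay just outside the limits (M4 minus quiescent 3.44, RB minus M4 -1.18) and 1 had M4 0.02 below quiescent axes. Glutamine synthetase, which fixes ammonium, was represented by the cytosolic GLN6 (LOC542520) and by gs2 (LOC542746). The gs2 probe set was at 8.24, 8.60 and 9.16 in the polysomal insulin samples, 8.38, 8.06 and 8.43 in the polysomal no insulin samples, 9.38 in total insulin, 5.65 in RB, 9.34 in M4, and 5.44 and 5.48 in quiescent axes. RB lay close to quiescent axes there, at a position of 4.98%, and the other 8 germinated samples were all above 8. GLN6 was at 10.33, 9.85 and 10.06 in the polysomal insulin samples, 9.76, 9.76 and 9.78 in the polysomal no insulin samples, 9.94 in total insulin, 8.09 in RB, 10.09 in M4, and 4.60 and 4.74 in quiescent axes. NNR1, NIR, sum1, GLN6 and the initiator-binding protein gene IBP1 fell outside the naming rule and were named after their values were seen. IBP1 had 6.48 in RB and 8.78 in M4, against 5.34 and 5.15 in quiescent axes. Further probe sets of nar and NIR did not follow: a second probe set of nar was at 5.03 in RB and 5.24 in M4 against 5.62 and 5.32 in quiescent axes, and a second of NIR at 6.22 and 6.52 against 7.14 and 6.61. Probe sets of these genes therefore disagreed.

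Sugar supply and transport were represented by 6 genes. The monosaccharide transporter gene MST1 (LOC542695), which carries hexoses into cells, was at 12.17, 12.36 and 12.36 in the polysomal insulin samples, 12.43, 11.69 and 12.38 in the polysomal no insulin samples, 12.37 in total insulin, 11.19 in RB, 12.62 in M4, and 4.89 and 4.88 in quiescent axes. A second MST1 probe set was also a member, with RB 1.90 below M4 and M4 6.46 above quiescent axes. The cell wall invertase incw1 (LOC542314), which splits sucrose outside the cell, was at 10.69, 11.24 and 11.45 in the polysomal insulin samples, 11.07, 10.43 and 11.19 in the polysomal no insulin samples, 11.68 in total insulin, 9.33 in RB, 11.69 in M4, and 5.22 and 5.81 in quiescent axes. Polysomal insulin 1 and no insulin 2 were the lowest of the 7 samples outside the rule for incw1, as they were for MST1. The sucrose synthase sh1 (LOC542365) and the amylase BMY1 (LOC542472) had RB 1.36 and 1.77 below M4. The sh1 member was above RB in only 5 of the 7 samples outside the rule. A brighter sh1 probe set was outside both limits, with M4 minus quiescent of 3.01 and RB minus M4 of -0.93. Another was at background in quiescent axes and in RB. The vacuolar aquaporin TIP2-3 (LOC541687) was at 11.30, 9.94 and 11.12 in the polysomal insulin samples, 9.47, 10.49 and 11.04 in the polysomal no insulin samples, 10.41 in total insulin, 8.01 in RB, 10.61 in M4, and 5.40 and 4.90 in quiescent axes. The proton pump gene mha4 (LOC542052), which energises uptake at the plasma membrane, lay near the limit of the rule, with RB 1.21 below M4. Of the 6 strongly induced probe sets in the transport list of 57, 4 were members and 2, the aquaporins PIP2-6 and TIP2-1, lay in between; none was equally induced.

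Hormone and amine breakdown gave some of the largest gaps. The cytokinin oxidase cko2 (LOC542507) was at 9.31, 9.93 and 9.53 in the polysomal insulin samples, 9.81, 9.12 and 10.01 in the polysomal no insulin samples, 9.44 in total insulin, 6.94 in RB, 10.10 in M4, and 4.29 and 4.54 in quiescent axes. RB was 3.15 below M4, and both quiescent values were at background. Its relative cko3 (LOC542056) was at 7.62, 8.60 and 8.08 in the polysomal insulin samples, 8.42, 7.62 and 8.44 in the polysomal no insulin samples, 8.09 in total insulin, 5.00 in RB, 8.60 in M4, and 3.70 and 3.39 in quiescent axes. RB was 3.60 below M4, and M4 was at least 3.90 above quiescent axes, which were at background for cko3. A second cko3 probe set stayed at 3.71 in RB and 4.33 in M4, against 4.85 and 4.21 in quiescent axes, and the member probe set is of a kind that can also bind related genes. The polyamine oxidase pao1 (LOC541983), which releases hydrogen peroxide in the wall, was at 8.91, 8.77 and 9.41 in the polysomal insulin samples, 8.60, 8.56 and 9.22 in the polysomal no insulin samples, 9.41 in total insulin, 6.71 in RB, 9.70 in M4, and 4.45 and 3.49 in quiescent axes. ACO31 (LOC542136), an ACC oxidase that makes ethylene, had a smaller gap of 1.40. Both strongly induced probe sets of a cytokinin list of 22, which was also chosen after the values were seen, were these members; the response regulator RR5 was at 9.52 in RB and 9.20 in M4 against 7.49 and 7.30.

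Defence and stress genes included lox1, the second member by size. Lipoxygenase lox1, which oxidises fatty acids, was at 12.27, 11.66 and 12.40 in the polysomal insulin samples, 11.50, 11.71 and 12.52 in the polysomal no insulin samples, 13.04 in total insulin, 10.64 in RB, 12.90 in M4, and 5.06 and 4.22 in quiescent axes. Total insulin and M4 were the highest samples, and the 6 polysomal ones were lower by 0.38 or more. A second lox1 probe set gave similar values, with RB 2.15 below M4. The chitinase chn1 (LOC542525), which cleaves fungal cell walls, was at 11.18, 11.56 and 11.32 in the polysomal insulin samples, 11.71, 10.56 and 11.68 in the polysomal no insulin samples, 12.15 in total insulin, 10.12 in RB, 12.32 in M4, and 4.70 and 5.26 in quiescent axes. The physical-impedance-induced gene piip1 (LOC542597) was at 12.84, 11.76 and 12.36 in the polysomal insulin samples, 11.78, 12.49 and 12.54 in the polysomal no insulin samples, 11.01 in total insulin, 10.29 in RB, 11.51 in M4, and 3.60 and 3.65 in quiescent axes. Its quiescent values were at background, and M4 was at least 6.81 above them. The 6 probe sets of piip1 disagreed: this was the only member, and a further probe set had RB 0.58 above M4. Another, at 10.81 and 10.79 in quiescent axes, had M4 minus quiescent of -1.89, while all the rest were strongly induced. The cyclotide umi11 (LOC606488), a small ring-shaped peptide, the ribosome-inactivating protein rip2 (LOC541814) and prp2 (LOC542195) had RB 1.32, 2.01 and 1.502 below M4. In the defence list of 12 probe sets, 6 were strongly induced, of which 4 were members and 2, wip1 and pr5, lay just outside at -1.196 and -1.18. The glycine-rich protein gene grp3 was 9.53 in RB and 11.10 in M4, against 5.00 and 4.71 in quiescent axes.

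The cell wall list and the DNA and chromatin list each held 2 members. Of 7 strongly induced probe sets in the cell wall list of 39, expB6 (LOC542566, an expansin that loosens walls) and Px11 (LOC542464, a peroxidase) lagged, 3 lay in between, 1 was equally induced and the expansin expa1 had RB 0.58 above M4. Px11 was at 9.65, 9.37 and 9.61 in the polysomal insulin samples, 9.15, 9.23 and 9.60 in the polysomal no insulin samples, 9.25 in total insulin, 7.11 in RB, 9.31 in M4, and 5.92 and 5.35 in quiescent axes. For DNA and chromatin, 9 of 43 probe sets were strongly induced; 2 lagged, namely the DNA methyltransferase met2 and the HMG-type DNA-binding gene MNB1b, while pcna1 and pcna2, the sliding clamps of DNA replication, were equally induced. PCNA2 was at 10.83 in RB and 10.85 in M4, against 5.73 and 6.20 in quiescent axes. The other MNB1b probe sets did not follow the member and had M4 0.20 and 0.42 below quiescent axes. No ribosomal protein probe set of 29 and no cytoskeleton probe set of 31 was a member, and 2 cytoskeleton ones were equally induced. Reserve mobilisation held 1 member of 14, BMY1, and the plastid list of 26 held the 2 fnr1 probe sets. Of 10 embryo reserve markers, none was a member and 1, a dehydrin, was equally induced. Counts of this kind are small, and the lists cover only probe sets with a symbol. Members were 34.1% of all strongly induced probe sets and 1.04% of all 17555. No list is therefore read as rich or poor in members.

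**Figure D4:**
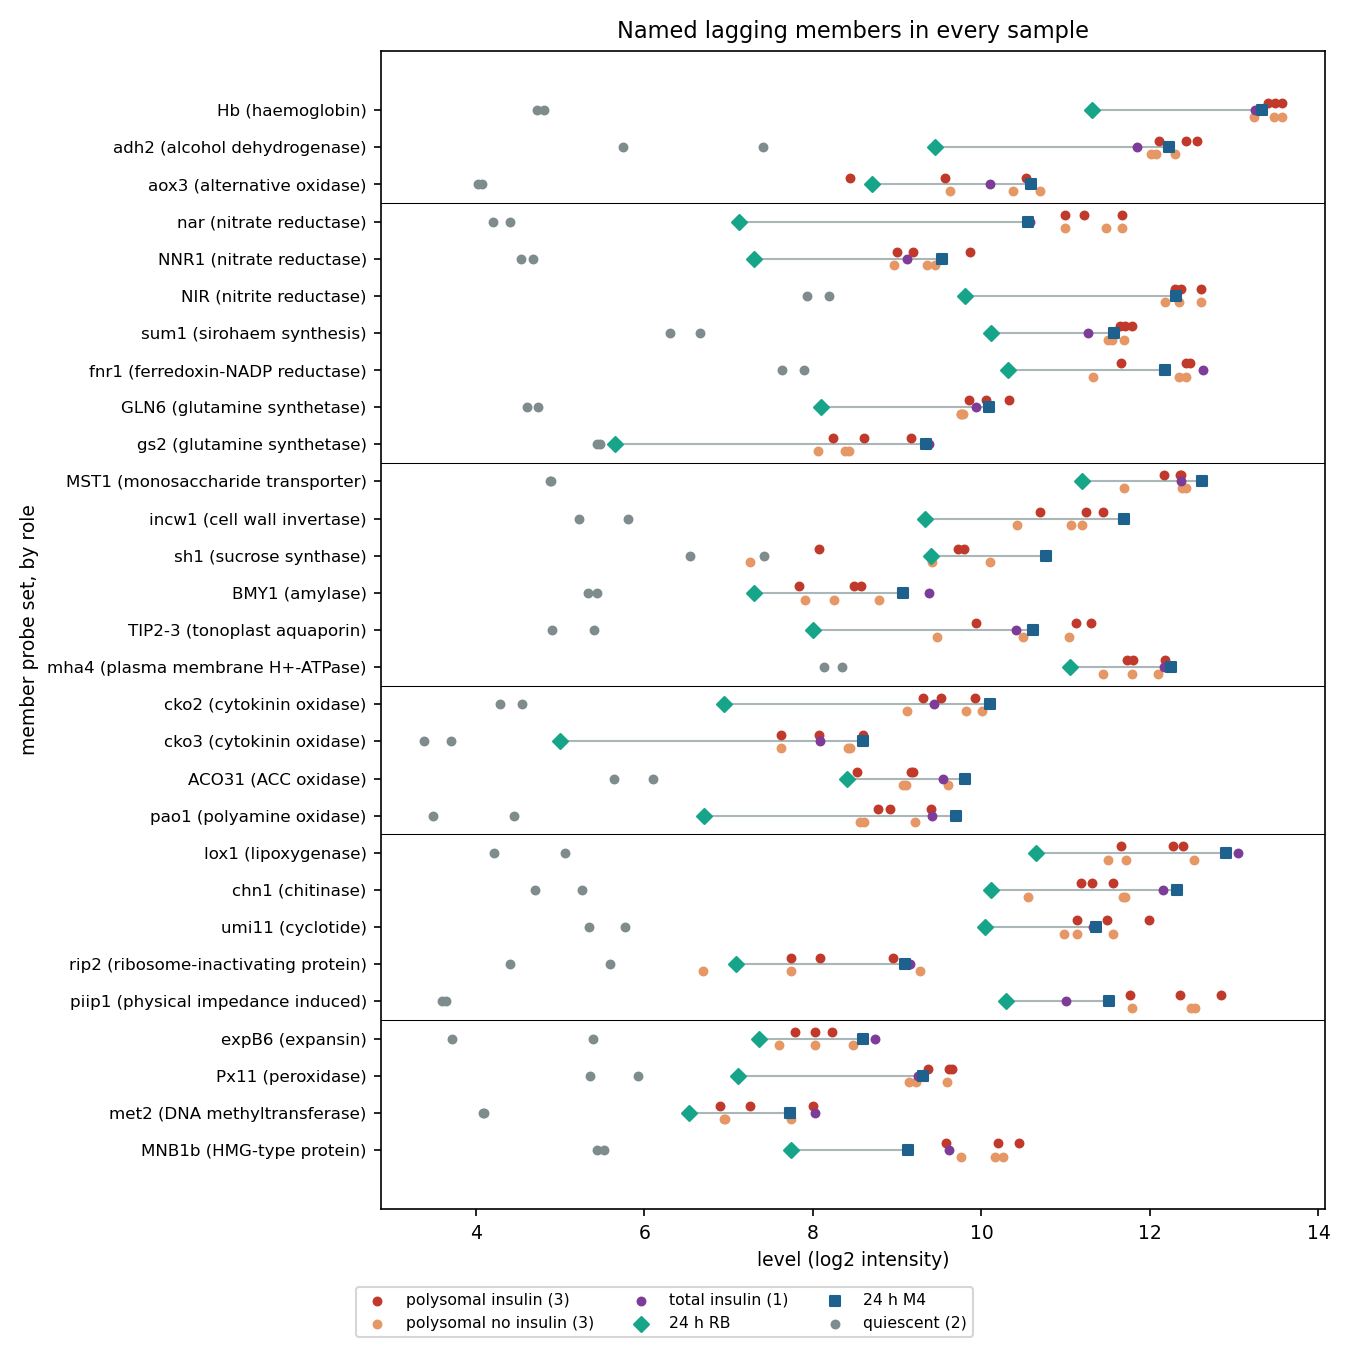
Levels (log2 intensity, x axis) of 29 named members by role (y axis) in the polysomal insulin, polysomal no insulin, total insulin, 24 h and quiescent samples. The grey line joins RB (diamond) and M4 (square); for gs2 RB sits beside the quiescent points, and for Hb it sits far above them.

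Of the 148 members without a symbol, the highest by M4 minus quiescent was at background in both quiescent samples, with M4 at least 7.31 above them and RB 1.42 below M4. In all, 18 members had RB at least 3 below M4. Probe sets that can bind transcripts of several genes, marked by an s in their name, were 10 of 183 members (5.46%) and 1.79% of all 17555. Those marked by an x, which can also bind other transcripts, were 7 of 183 (3.83%) and 3.57% of all. They include the second lox1 member and 1 of the fnr1 members. A few levels may therefore mix related genes.

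Whether insulin changes which messages are found in polysomes is a question for samples outside the rule, asked as polysomal RNA with insulin against polysomal RNA without it. No member was called (adjusted p under 0.05 in limma's fit of all 5 groups), and neither was any of the 17582 probe sets (0.0%). At an unadjusted p under 0.05 there were 57 probe sets (0.324%) and no member. Each polysomal sample was most like a sample of the other insulin group, and this unpaired fit counts that shared spread as error. The absence of calls therefore does not show that insulin had no effect. The members' median difference was 0.07, and 127 of 183 were above 0, against a median of -0.01 and 48.2% above 0 over all tested. Without polysomal no insulin 2 that median was -0.02, so its sign rested on that sample. The aquaporin TIP2-3 and gs2 had the highest differences among named members, 0.45 and 0.38, with standard errors of 0.66 and 0.74. The lowest were aox3 at -0.72 and ACO31 at -0.30, with standard errors of 0.58 and 0.35. All these standard errors come from the 5-group fit, whose spread for members includes the gap between RB and M4. GLN6 was the only named member whose insulin samples, at 9.85 to 10.33, lay above all no insulin samples, at 9.76 to 9.78; with an unnamed member these were 2 of 183 (1.09%) whose groups did not overlap, against 3.98% of all tested.

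The 5-group fit has wide errors for members because RB and M4, chosen to differ, enter its common spread. In a fit of the 3 groups outside the rule, added after the data were seen, the median standard error was 0.24 in place of 0.43. The 95% interval of the insulin difference then lay within 2-fold for 151 of 183 members (82.5%), compared with 69 (37.7%) in the 5-group fit. Over all tested probe sets the shares were 93.6% and 91.6%. Still no member was called in this limma fit. At an unadjusted p under 0.05 it had 1 member (0.546%) and 178 of all tested (1.01%). Only 1 member (0.546%) differed by more than 2-fold, an unnamed one at -1.04, against 0.125% of all tested. For Hb the insulin difference was 0.05 with a 95% interval from -0.25 to 0.36 in the 3-group fit, and for NIR it was 0.05 with an interval from -0.31 to 0.42.

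Polysomal and total RNA were compared with insulin present, as 3 polysomal samples against 1 total RNA sample. That sample has no spread of its own, so standard errors, p-values and intervals here assume that it varies like the other groups, and the absence of a call does not show that the levels were alike. No member was called, against 1 of 17582 probe sets (0.00569%). At an unadjusted p under 0.05 there were 2 members (1.09%) and 1689 of all tested (9.61%). In the 3-group fit these were 17 members (9.29%) and 2314 of all tested (13.2%), with 0 called. The median difference was 0.02 for members and -0.07 for all tested. The difference was above 2-fold for 11 members (6.01%), 6 higher and 5 lower in polysomal RNA. The share was 3.80% of all tested and 6.88% of equally induced probe sets. The highest named difference was that of piip1, 1.31 (SE 0.52, adjusted p = 0.497 in limma's 5-group fit), with 11.76 to 12.84 in polysomal insulin and 11.01 in total insulin. Next came nar at 0.71, adh2 at 0.51 and MNB1b at 0.46. The lowest was sh1 at -1.56 (SE 1.06, adjusted p = 0.645), and its polysomal insulin values of 8.07, 9.72 and 9.79 spread more widely than the gap to the nearest, against 10.75 in total insulin. Another sh1 probe set did not share this, at 12.31, 12.53 and 12.64 in polysomal insulin, against 12.51 in total insulin. BMY1 followed at -1.08 and the lox1 probe sets at -0.999 and -0.94. In the 3-group fit 65 members (35.5%) had a 95% interval within 2-fold, against 67.6% of all tested. In the 5-group fit these were 0 members and 61.0% of all tested.

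**Figure D5:**
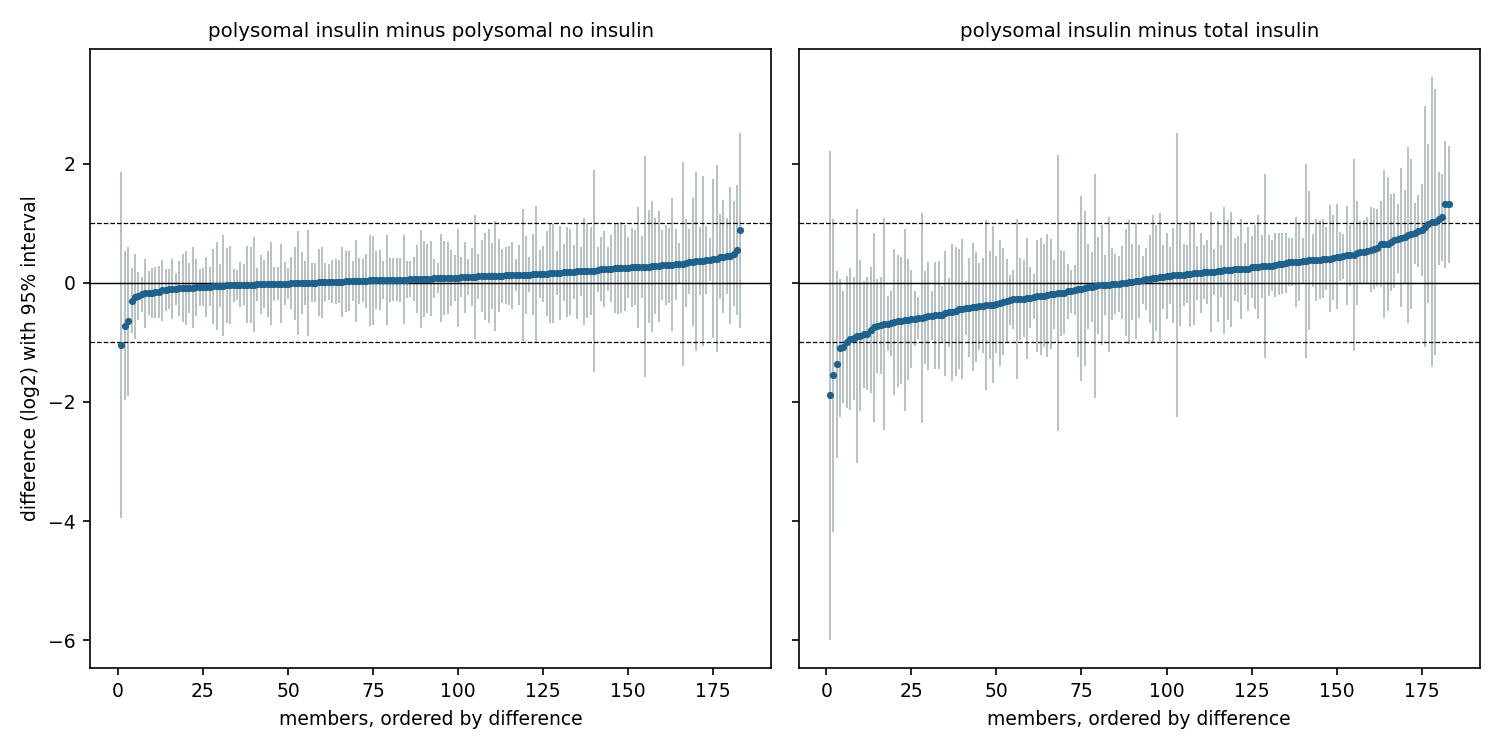
Difference (log2, y axis) of each of the 183 members, ordered along the x axis, with 95% intervals from the fit of the 3 groups outside the rule. Left, polysomal insulin minus polysomal no insulin; right, polysomal insulin minus total insulin; dashed lines mark 2-fold, which 1 member passes on the left and 11 on the right.

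Polysomal samples varied more for members than for most probe sets. The range over the 6 polysomal samples was above 1 for 68 members (37.2%), against 11.7% of all tested. Its median was 0.85 for members, 0.71 for all strongly induced, 0.64 for equally induced and 0.50 for all tested probe sets. Part of the wider spread was thus shared with equally induced probe sets. Polysomal insulin 1 and no insulin 2, which had the highest EF1a ratios, were both below the other 4 for 57 members (31.1%) and both above for 16 (8.74%), against 18.8% and 16.8% of all tested. In these samples sh1 was at 8.07 and 7.26, while the other 4 polysomal samples were at 9.42 to 10.10. The other sh1 probe set was also lowest in them, at 12.31 and 11.86, against 12.39 to 12.64 in the other 4. The sh1 probe sets thus shared the direction but not the size of the gap. The part of incomplete copies in this spread was not tested.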

How the data were processed

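RNA from maize embryonic axes was hybridised to Affymetrix maize arrays, 14 arrays from 11 biological samples. The authors deposited log2 values per probe set, and the submitters' processing notes name limma without a version; the background correction, the normalisation and the probe summary are steps not given in the sources used here. Values ran from 2.60 to 14.38.

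From these log2 values, technical arrays were averaged and limma 3.58.1 (R 4.3.3; lmFit and eBayes) fitted all 5 groups over 17582 probe sets, leaving out 152 controls, with 6 residual degrees of freedom. Benjamini-Hochberg adjustment ran over all tested probe sets, and a call needed an adjusted p under 0.05. The fit was tested on simulated data. Background was each sample's 95th percentile of 23 negative controls, 4.29 to 4.81. The number of arrays limits precision. Tables used Python 3.11.15 and pandas 2.3.3.

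Members and lists were chosen with earlier results of these data known. Genes were named from the platform annotation of 2007, which gave 1 symbol to 1452 probe sets, several to 1 and none to 16281, and 1377 matched RefSeq genes of assembly Zm-B73-REFERENCE-NAM-5.0. Up to 30 members with a symbol were named: the 12 highest by M4 minus quiescent, the 6 with the lowest RB minus M4, the extremes of both polysomal comparisons (4 each way against total insulin, 2 each way for insulin) and those in functional lists. Levels of different probe sets were not compared. The alternatives tried were other normalisations, array choices, filters, priors, sample sets, a replicate block and leaving out each sample.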

Additional observations from a re-analysis of the deposited data

How the results depend on the processing

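For polysomal insulin against polysomal no insulin, limma called 0 probe sets under every alternative, the replicate block included (0), and no member. The replicate numbers 1 and 2 did not match the samples that were most alike. Deviations from the group means correlated at -0.61, -0.21 and 0.86 for numbers 1 to 3. They correlated at 0.88 between insulin 2 and no insulin 1 and at 0.74 between insulin 1 and no insulin 2. Samples that were alike also had near EF1a ratios. These were 1.45 and 1.32 for insulin 2 and no insulin 1, and 2.25 and 2.55 for insulin 1 and no insulin 2. For insulin 3 and no insulin 3 they were 0.99 and 0.88. How the samples were paired was not tested. No label links these samples, so no fit crossed the numbers. For numbers 1 and 2 the replicate block thus paired samples that were not the most alike. Its 0 calls, like those of the unpaired fits, do not show that insulin had no effect. For polysomal insulin against total insulin the count was 1, with 2 under a trended robust prior, 7 when technical arrays entered singly as a random block per sample, 0 when the fit held just the groups compared, 0 with only the 3 groups outside the rule, and 0 to 2 when a sample was left out; no member was called in any of these, and the cause was not tested. For 24 h against quiescent axes 8275 probe sets were called, with 5764 to 10413 under the alternatives and 6441 to 7851 when a sample was left out, and 162 to 182 members among them. Other scalings and array choices gave 172 to 193 members, and other thresholds 132 to 238. Members with an insulin interval within 2-fold numbered 69, against 40 with the replicate block, 151 with the 3 groups, and 22 to 31 when a sample was left out. The median of polysomal insulin minus total insulin was -0.04 with first technical arrays and 0.14 with second ones. RB is 1 sample on 1 array, so its gap has no replicate, and its part as a sample or as an array cannot be told apart. Total insulin is also 1 sample.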

Other observations

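Of the members without a symbol, those of rank 126 and rank 132 by M4 minus quiescent were singled out after their values were seen, for their large gap in RB. The member of rank 126 was at 10.18, 12.13 and 7.69 in polysomal insulin 1 to 3, between 9.10 and 12.01 in the polysomal no insulin samples, at 11.88 in total insulin, 6.36 in RB, 12.13 in M4, and 7.59 and 8.46 in quiescent axes. RB was below both quiescent samples and 5.76 below M4, and the samples numbered 3 were the lowest of their polysomal groups. The member of rank 132 was at 11.53, 12.48 and 10.46 in polysomal insulin 1 to 3, 12.42, 12.58 and 11.42 in polysomal no insulin 1 to 3, 12.18 in total insulin, 8.39 in RB, 12.53 in M4, and 8.18 and 8.76 in quiescent axes. The same samples, RB and both numbered 3, were the lowest of their groups. No explanation was tested.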
